A study of Homo sapiens with 9 samples.

Results

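The genes described here drive the cell through DNA replication and mitosis, and they are the genes by which proliferation is usually read from RNA. They are 40 genes taken by name from a count table of 60656 genes, and each name matched 1 row. Of these, 19 act at the entry into or during S phase and 21 mainly in G2 and mitosis (CCNA2 and MYBL2 are also switched on earlier). They were measured in RIVA, an established diffuse large B-cell lymphoma line of the activated B-cell type. The cells carried a doxycycline-inducible lentiviral construct that was empty (vector, for which the labels give BCL10 wild type), or that encoded the truncated BCL10 S136X or the missense BCL10 R58Q. All cells received doxycycline at 200 ng/mL for 24 h (the sample labels write this dose per uL), and 3 libraries were made for each construct. BCL10, an adaptor protein of NF-kB signalling, is thus raised by transgene on top of the line's own gene, in 1 line and at 1 time point. The comparison asks whether RNA of the replication and mitotic programs differed while the mutants were expressed.

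In cycling cells, E2F factors switch on the S phase genes once cyclin-dependent kinases have phosphorylated the retinoblastoma family of pocket proteins. Their products license origins (CDC6, CDT1 and the MCM2 to MCM7 helicase), open them (CDC45 and GINS2) and supply the polymerase clamp and nucleotides (PCNA, RRM1, RRM2 and TYMS). The mitotic genes are held down by the DREAM complex in resting and G1 cells and are switched on late in the cycle by MYBL2 and FOXM1 with the MuvB core, at promoters with CHR elements and CCAAT boxes. Activated B-cell lymphomas proliferate fast, so both programs are on in such cells.

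The promoters of the members carried the letters by which these programs are told apart. RefSeq promoters (250 bases before to 50 after each start, GRCh38.p14) were at hand for 15 of the 19 S phase genes and 16 of the 21 mitotic genes. E2F letters (TTTGGCGC, TTTCCCGC, TTTGCCGC or TTTCGCGC, on either strand) stood in a promoter of 11 of these 15 S phase genes (73.3%), of 1 of the 16 mitotic genes (6.25%) and of 3.99% of all 27303 genes with a promoter. CHR letters (TTTGAA or TTCGAA, on either strand) stood in 10 of the 16 mitotic genes (62.5%), 2 of the 15 S phase genes (13.3%) and 19.5% of all genes. CCAAT on either strand stood in 13 of the 16 mitotic genes (81.2%), 10 of the 15 S phase genes (66.7%) and 39.7% of all genes. A match describes letters and is not a measured binding site. The 100 bases before the start are shown for 4 members, with matches of any of the 3 kinds in capitals, because E2F2 is the S phase member that fell, MCM6 the one that varied most with replicate number, and KIF11 and MKI67 are a mitotic motor and the proliferation marker Ki-67.
E2F2, chr1:23531234-23531333, minus strand: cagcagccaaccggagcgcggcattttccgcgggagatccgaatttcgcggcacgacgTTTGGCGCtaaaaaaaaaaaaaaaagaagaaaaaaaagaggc
MCM6, chr2:135876444-135876543, minus strand: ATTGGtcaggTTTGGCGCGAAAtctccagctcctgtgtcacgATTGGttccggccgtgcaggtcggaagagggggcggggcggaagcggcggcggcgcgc
KIF11, chr10:92593030-92593129, plus strand: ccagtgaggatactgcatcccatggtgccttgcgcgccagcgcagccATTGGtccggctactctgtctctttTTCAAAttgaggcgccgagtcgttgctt
MKI67, chr10:128126424-128126523, minus strand: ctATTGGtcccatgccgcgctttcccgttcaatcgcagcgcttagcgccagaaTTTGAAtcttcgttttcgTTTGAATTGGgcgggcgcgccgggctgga
The E2F letters of E2F2 began 42 bases before its start and the CHR letters of KIF11 28 bases before, while in MKI67 they began 47 and 29 bases before. In MCM6 the capitals after the first CCAAT box hold 2 overlapping E2F matches, 90 and 86 bases before the start, and in MKI67 the last capitals join a CHR match to an overlapping CCAAT match. KIF20A, the mitotic member that fell, had CCAAT 94 and 67 bases before its start and no CHR letters in its window.

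Total counts ran from 28047713 to 33122267 per library (median 32185418). All 40 members had enough counts to be tested in every comparison. BCL10 stood at 30.9 ± 6.87 CPM (counts scaled to library size, SD, n = 3) in vector, 414 ± 71.7 in S136X and 335 ± 24.0 in R58Q, and every mutant library was above every vector library. Counts do not tell the line's own BCL10 from the transgene. All 7 B-cell markers had at least 10 counts in every library, while no T-cell marker passed 9 counts and no myeloid marker 12 counts in any library. The summed level of 5 stromal and epithelial markers was 45.4 to 55.2 CPM in vector and 45.2 to 72.3 CPM in the mutants. Most of this sum was EPCAM, which averaged 43.1 to 44.1 CPM by construct. COL1A1 was higher in both mutants (log2 fold changes 1.65 and 1.77). COL1A2 went the other way, with means of 1.35 CPM for R58Q and 2.16 for S136X against 3.18 for vector, and its libraries overlapped. The part of these markers in the results was not tested. In bulk RNA, fewer cells in a phase and less RNA per cell cannot be told apart. The column names of the table carry 1 date for the vector and S136X libraries and another for the R58Q libraries, so that date and construct cannot be told apart for R58Q.

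**Figure D1:**
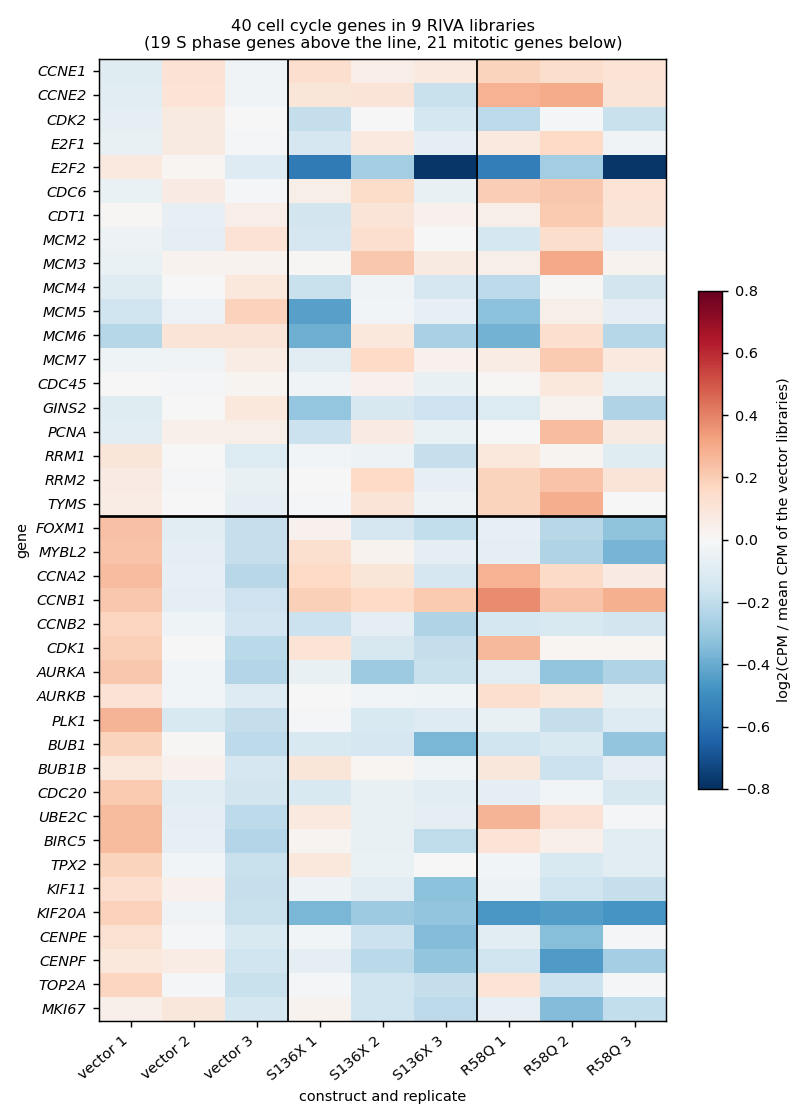
The 40 members (rows) in the 9 libraries (columns), coloured by log2 of CPM over the mean CPM of the vector libraries, with the S phase genes above the heavy line. E2F2 is blue in all 6 mutant libraries, down to 90.9 CPM against a vector mean of 156 CPM, and most other rows stay pale.

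Both programs were on in every library. On a scale of CPM per kilobase of exon, averaged over the 3 constructs, the S phase members had levels from 11.6 (CCNE2) to 256 (PCNA), with a median of 49.5, and the mitotic members from 8.83 (CENPE, a kinetochore motor) to 470 (MYBL2), with a median of 38.0. MYBL2, the B-Myb transcription factor, was the member with the highest level per kilobase. PCNA, MCM7 (237) and TYMS (146) followed. Exons of TYMS overlap ENOSF1 on the opposite strand over 39.1% of their length and those of CCNE2 overlap INTS8 over 37.0%, and since the strand setting of the counting is not given in the sources used here, levels of these genes are uncertain. So are those of MCM2, whose exons overlap AC023593.1 on the opposite strand over 22.7%. Exons of RRM2 overlap AC007240.1 on the same strand over 20.2%, so its counts are uncertain at either strand setting.

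Expression of S136X left nearly all 40 members near their vector level. No member differed by 1.5-fold or more with an adjusted p under 0.05 (edgeR), where 3.87% of the 15530 genes tested did. Of the members 1 passed the adjusted p alone, against 10.1% of all genes and 17.8% of genes in the members' range. An unadjusted p under 0.05 was found in 4 of the 40 members and in 4145 of the 15530 genes. DESeq2 passed 2 and limma-voom 1. The 95% intervals of 39 members lay inside 1.5-fold in either direction, the exception being E2F2. The absolute log2 fold change had a median of 0.084 over the members and 0.178 over all genes, and 0.131 over the 4581 genes with levels in the members' range. The 3 libraries of S136X did not overlap those of vector in 3 members (E2F2, GINS2 and KIF20A, all lower), or 7.50%, where 31.3% of all genes did not overlap.

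R58Q gave a similar picture with slightly wider differences. Again no member was past both thresholds (edgeR), where 7.63% of 15435 genes were. The adjusted p alone passed 2 members, E2F2 and KIF20A, against 21.0% of all genes and 32.0% of genes in the members' range. An unadjusted p under 0.05 was found in 7 of the 40 members and in 5576 of the 15435 genes. DESeq2 passed 4 and limma-voom 2. Intervals of 38 members lay inside 1.5-fold, with E2F2 and KIF20A reaching past it. The median absolute log2 fold change was 0.13 over the members, 0.218 over all genes and 0.158 over the 4581 genes in the members' range. Libraries of R58Q and vector did not overlap in 7 members, CDC6, MCM3, RRM2 and CCNB1 being higher and E2F2, KIF20A and CENPF lower, or 17.5%, where 40.3% of all genes did not overlap. MCM3 and CENPF were barely separated. The lowest R58Q library of MCM3 had 313.594 CPM against 313.591 in the highest vector library. For CENPF the highest R58Q library had 360.4 CPM against 361.0 in the lowest vector library.

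**Figure D2:**
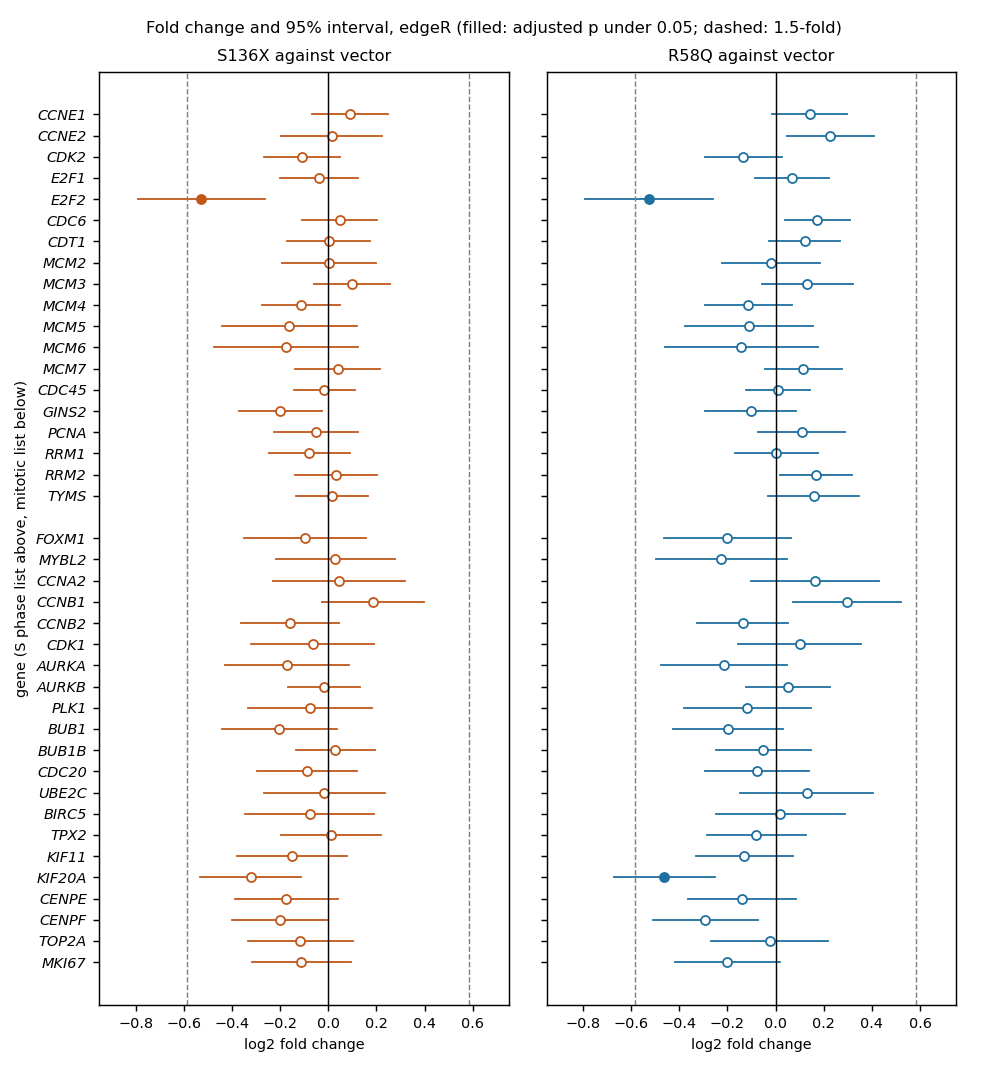
Log2 fold change (points) with its 95% interval (lines) for each member, S136X against vector on the left and R58Q against vector on the right, with 1.5-fold dashed and filled points for an adjusted p under 0.05 in edgeR. Only E2F2 is filled on the left, and E2F2 and KIF20A on the right.

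Libraries that share a replicate number deviated together, and with the number as a block in the same edgeR model more members passed. In S136X 7 of 40 passed (17.5%, against 24.7% of all genes and 38.9% of those in the members' range), all lower: E2F2, GINS2, BUB1, KIF11, KIF20A, CENPE and CENPF. In R58Q 12 of 40 passed (30.0%, against 35.2% and 48.9%), of which CCNE2, CDC6, RRM2, CCNA2 and CCNB1 were higher and E2F2, FOXM1, MYBL2, AURKA, BUB1, KIF20A and CENPF lower. No member passed with 1.5-fold under the block.

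Among the factors and kinases of the G1/S step, E2F2 was the member that changed. E2F2, an activating E2F (chr1:23506438-23531233), had 165, 158 and 146 CPM in vector, 105, 129 and 90.9 CPM in S136X and 107, 129 and 91.3 CPM in R58Q. All 6 mutant libraries were below all vector libraries, and libraries of the same number in the 2 mutants were nearly equal. It fell by 0.53 on the log2 scale in S136X (SE 0.116, edgeR adjusted p = 0.0244) and by 0.52 in R58Q (SE 0.116, adjusted p = 0.0167), and with the block the adjusted p was 0.000667 and 0.000718. Leaving out single libraries kept it lower but took the adjusted p past 0.05 in 3 of 6 fits for S136X and 1 of 6 for R58Q, the highest being 0.0986 and 0.0685, both without vector replicate 2. E2F1, the related activator, had log2 fold changes of -0.04 and 0.07, neither past the test.

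The cyclins E, which activate CDK2 at this step, were near vector. CCNE1 had 71.7, 83.3 and 75.4 CPM in vector, 84.3, 79.6 and 81.2 in S136X and 86.9, 84.5 and 82.9 in R58Q. Both mutants overlapped vector, and the log2 fold changes of 0.09 and 0.14 did not pass. CCNE2 had 45.1, 51.9 and 47.1 CPM in vector, 51.3, 51.6 and 42.5 in S136X and 58.3, 58.9 and 51.5 in R58Q. In R58Q it had the highest log2 fold change of the S phase members, 0.23 (edgeR adjusted p = 0.0761, and 0.0216 with the block).

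None of the 10 licensing and helicase genes passed in either mutant, and with the block GINS2, a part of the replicative helicase, was lower in S136X (edgeR adjusted p = 0.0247) and CDC6 higher in R58Q (adjusted p = 0.0268). MCM2, a subunit of the replicative helicase, had 462, 449 and 513 CPM in vector, 432, 521 and 474 in S136X and 431, 524 and 454 in R58Q, and the 3 groups overlapped. MCM3 was the S phase member with the highest log2 fold change in S136X, 0.10 (edgeR adjusted p = 0.398), with 296, 313 and 314 CPM in vector, 309, 356 and 322 in S136X and 318, 379 and 314 in R58Q. The 10 log2 fold changes ran from -0.20 (GINS2) to 0.10 in S136X and from -0.14 (MCM6) to 0.17 (CDC6, an origin loader) in R58Q.

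None of the 4 clamp and nucleotide genes passed in either mutant without the block. PCNA had 349, 381 and 383 CPM in vector, 329, 388 and 358 in S136X and 371, 440 and 390 in R58Q, and its log2 fold changes were -0.05 and 0.11. RRM2, the limiting subunit of ribonucleotide reductase, and TYMS, which makes thymidylate, had 0.17 and 0.16 in R58Q (edgeR adjusted p = 0.0995 and 0.208). RRM2 had 526, 500.5 and 483 CPM in vector, 501, 562 and 479.9 in S136X and 569, 589 and 539.7 in R58Q, so that R58Q lay above vector in every library, and with the block RRM2 passed in R58Q (edgeR adjusted p = 0.0302).

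In the mitotic list, KIF20A passed the test in R58Q. KIF20A, a kinesin of the central spindle (chr5:138178719-138187723), had 62.4, 53.8 and 48.5 CPM in vector, 42.6, 44.95 and 44.1 in S136X and 39.8, 40.4 and 39.6 in R58Q. The 6 mutant libraries were all below the vector libraries and lay close together. It fell by 0.46 on the log2 scale in R58Q (SE 0.0912, edgeR adjusted p = 0.0110), with the adjusted p under 0.05 in all 6 fits that left out a library. In S136X it had -0.32 (edgeR adjusted p = 0.0617, and 0.0152 with the block). There it passed in 1 of 6 fits that left out a library, with 0.0427 without vector replicate 3 and up to 0.174 in the others. With all libraries kept, KIF20A passed in S136X with DESeq2 (adjusted p = 0.0344). In edgeR it passed with upper-quartile factors (adjusted p = 0.0415), total counts (0.0354), no filter (0.0163) or all 9 libraries in 1 fit (0.0331). It did not pass with limma-voom, median-of-ratios factors or at least 10 counts in every library.

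CCNB1, the cyclin B that activates CDK1 at mitotic entry, had the highest log2 fold change of the mitotic members in both mutants. Its libraries had 165, 135 and 127 CPM in vector, 163, 159 and 165 in S136X and 185, 167 and 174 in R58Q. R58Q was above vector in every library, whereas S136X overlapped vector replicate 1. The log2 fold changes were 0.19 (edgeR adjusted p = 0.240) and 0.30 (adjusted p = 0.0642, and 0.00515 with the block). Without vector replicate 1 they were 0.32 (edgeR adjusted p = 0.0242) and 0.43 (adjusted p = 0.00877), both past the test. For each mutant this was the only 1 of 6 fits leaving out a library that passed. In the others the adjusted p reached 0.510 in S136X and 0.209 in R58Q. With all libraries kept, CCNB1 passed in R58Q with DESeq2 (adjusted p = 0.0303). It also passed there in edgeR with no filter (adjusted p = 0.00946) or all 9 libraries in 1 fit (0.0368). It did not pass with limma-voom, other scalings or at least 10 counts in every library. CCNB2, a second cyclin B, had -0.16 and -0.14, so that the 2 cyclins B had opposite signs, with neither past the test.

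CDK1 and Ki-67 were also near vector. CDK1 had 130, 114 and 98.2 CPM in vector, 123, 104 and 100.2 in S136X and 137, 115 and 115 in R58Q, in each case highest in replicate 1. MKI67 had 1176, 1221 and 1039 CPM in vector, 1167, 1023 and 989.5 in S136X and 1095, 899 and 999 in R58Q. The groups overlapped, and the log2 fold changes of MKI67 were -0.11 (SE 0.0901, 95% interval -0.32 to 0.09) and -0.20 (SE 0.0948, 95% interval -0.42 to 0.02).

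Between the mutants no member passed (edgeR), where 66 of 15195 genes (0.434%) passed with 1.5-fold and 0.533% without. An unadjusted p under 0.05 was found in 2 of the 40 members, KIF20A and MYBL2, and in 1668 of the 15195 genes. DESeq2 and limma-voom passed no member. All 40 intervals lay inside 1.5-fold. The median absolute log2 fold change was 0.0868 over the members, 0.106 over all genes and 0.0698 over genes in the members' range. With the block 7 members passed (17.5%, against 14.6% of all genes and 21.4% of genes in the members' range): CCNE2, PCNA, RRM2, TYMS, CDK1 and UBE2C were higher in R58Q and MYBL2 was lower. MYBL2 had 1592, 1295 and 1199 CPM in vector, 1488, 1388 and 1295 in S136X and 1293, 1152 and 1054 in R58Q. All of its R58Q libraries were below all of its S136X libraries, at the closest 1292.9 against 1294.7 CPM. Its log2 fold change of R58Q over S136X was -0.26 (edgeR adjusted p = 0.281, and 0.000187 with the block). Both mutants were compared with the same 3 vector libraries, so their values against vector are not independent.

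The S phase list and the mitotic list differed little in their medians. Against vector, the S phase members had a median log2 fold change of -0.02 for S136X and 0.07 for R58Q. The mitotic members had -0.09 and -0.12, and all genes -0.02 and -0.03. In R58Q 12 of the 19 S phase members had a positive value and 15 of the 21 mitotic members a negative one. In S136X these counts were 9 of 19 and 16 of 21. Without CCNA2 and MYBL2, which are also switched on before mitosis, the mitotic median was -0.10 and -0.12. The median of all 21 mitotic members rested on 1 library, since without vector replicate 1 it was 0.05 and 0.00766.

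Library by library, the mitotic mean varied over a wider range in vector than the S phase mean did. The mean log2 ratio to the vector mean over the mitotic members was 0.19, -0.02 and -0.17 in vector, 0.00490, -0.08 and -0.15 in S136X and 0.01, -0.13 and -0.12 in R58Q. Over the S phase members it was -0.04, 0.02 and 0.02 in vector, -0.13, 0.05 and -0.11 in S136X and -0.03, 0.13 and -0.06 in R58Q. The mitotic mean of the mutants lay within the range of the vector libraries in all 6 cases. The difference of the 2 means, S phase minus mitotic, had a mean and SD over 3 libraries of 0.00 ± 0.214 for vector, 0.02 ± 0.138 for S136X and 0.09 ± 0.153 for R58Q. The constructs differed by less than the SD between libraries. Taken by replicate number, R58Q minus S136X was 0.09, 0.12 and 0.01 for this difference and 0.10, 0.08 and 0.05 for the S phase mean, above 0 in all 3 pairs. Against vector the difference was positive in replicates 1 and 2 and negative in replicate 3 for both mutants. No test was made of these means.

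**Figure D3:**
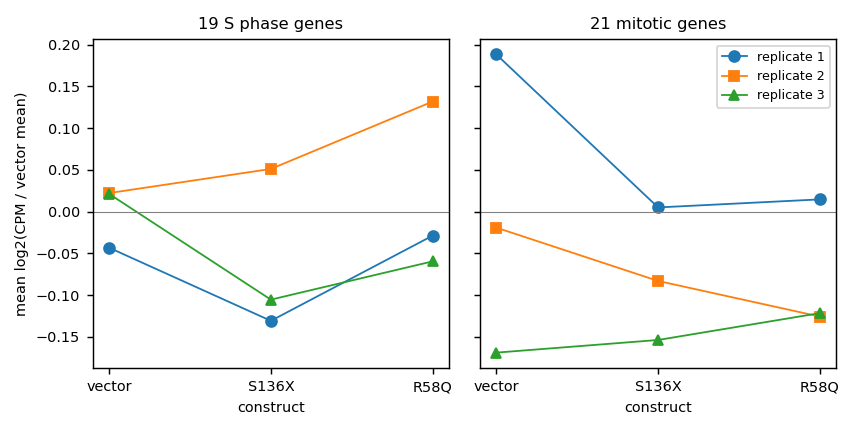
Mean log2 ratio of CPM to the vector mean over the 19 S phase members (left) and the 21 mitotic members (right), for each construct, with lines joining libraries of the same replicate number. Replicate 1 is the highest of its construct in the mitotic panel, at 0.19 in vector and 0.01 in R58Q.

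The members also differed between replicate numbers. With construct kept in the edgeR model, the number passed as a term in 10 of 21 mitotic members and 7 of 19 S phase members, where 20.7% of 15860 genes passed. Without the S136X libraries it passed in 3 and 0 of these, and without the R58Q libraries in 6 and 2. Without the vector libraries it passed in 14 of the S phase members. The share of all genes passing in these smaller fits was not computed. These counts are therefore not a result about the members. All 21 mitotic members had their highest level in replicate 1, averaged over the constructs, as did 6172 of the 15860 genes. Of the 21 members, 14 did so in each construct separately (66.7%, against 15.9% of all genes). FOXM1, the mitotic transcription factor, had deviations from the construct means of 0.17, -0.04 and -0.13 (edgeR adjusted p = 0.00179). CDK1 had 0.18, -0.05 and -0.14 (adjusted p = 0.00161).

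The helicase genes were at their lowest in replicate 1. All 6 MCM genes had their lowest mean there, as did 5808 of the 15860 genes tested. In 5 of the 6 MCM genes the highest was in replicate 2. MCM6 deviated by -0.21, 0.22 and -0.01 in replicates 1, 2 and 3 (edgeR adjusted p = 0.00121) and MCM5 by -0.21, 0.09 and 0.12 (adjusted p = 0.00434). Of the S phase members 17 of 19 had their highest level in replicate 2, as did 4642 of the 15860 genes. RRM1 was highest in replicate 1 instead. What the numbers stand for is not stated in the sources used here, and this comparison was made after the data were seen.

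**Figure D4:**
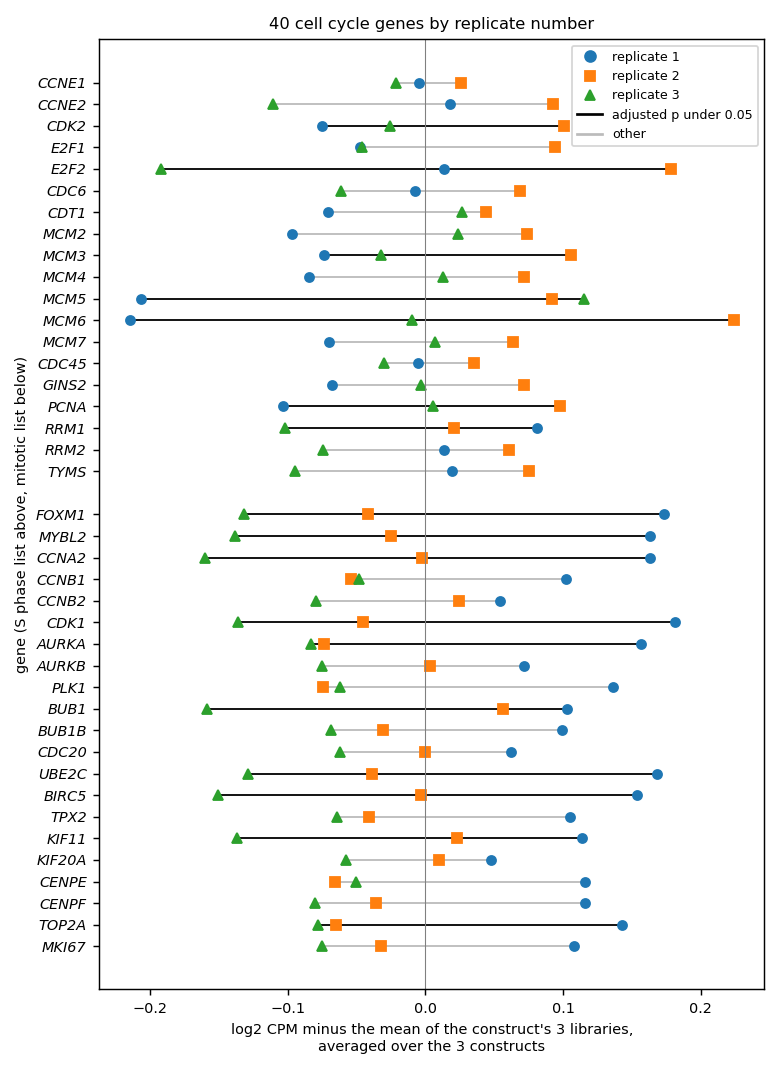
Deviation of log2 CPM from the mean of the construct's libraries, averaged over the 3 constructs, for replicates 1 (circle), 2 (square) and 3 (triangle), with a black line where the number passed as a term in edgeR. All 21 circles of the mitotic members are the rightmost of their row, and those of MCM2 to MCM7 the leftmost.

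Among regulators of G1, the inhibitors CDKN1B and CDKN2C fell and CDK4 rose in both mutants. Of the 10 CDK inhibitors and pocket proteins, 2 fell in S136X and 4 in R58Q, and none rose, where 10.1% and 21.0% of all genes passed in either direction. CDKN1B, the inhibitor p27, had 102, 91.8 and 93.2 CPM in vector, 70.1, 71.3 and 64.4 in S136X and 70.1, 67.8 and 59.6 in R58Q. No mutant library reached the vector libraries. CDKN1B fell by 0.48 and 0.54 on the log2 scale (SE 0.0676 and 0.0767, edgeR adjusted p = 0.00443 and 0.00283), with the adjusted p under 0.05 in all 12 fits that left out a library. CDKN2C, the CDK4/6 inhibitor p18, had 214, 191 and 175 CPM in vector, 155, 144 and 130 in S136X and 153, 144 and 126 in R58Q, and fell by 0.43 and 0.46 (adjusted p = 0.0206 and 0.0138). CDKN2C did not pass in S136X without vector replicate 2, S136X replicate 2 or S136X replicate 3 (adjusted p up to 0.0809), nor in R58Q without vector replicate 2 (adjusted p = 0.0569). CDKN2B had 1.04, 1.41 and 1.65 CPM in vector and 0.607, 0.702 and 0.581 in R58Q, where it fell by 1.11 (adjusted p = 0.0193, but 0.0694 to 0.0730 without vector replicate 2, vector replicate 3 or R58Q replicate 3), and the pocket protein RBL2 fell by 0.28 (adjusted p = 0.0286, passing in 1 of 6 fits that left out a library, with adjusted p up to 0.0992).

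The other inhibitors and pocket proteins did not pass in the main fit. CDKN1A, the inhibitor p21, had 77.5, 77.1 and 67.0 CPM in vector, 113, 88.5 and 80.8 in S136X and 80.7, 70.8 and 60.6 in R58Q, with log2 fold changes of 0.35 (edgeR adjusted p = 0.105, and 0.00586 with the block) and -0.07. CDKN2A had -0.01 and 0.04, CDKN2D -0.32 and -0.19, CDKN1C -1.20 and -0.73 at under 1 CPM in every library, RB1 -0.31 and -0.26 and RBL1 -0.10 and -0.07, none past the test. With the block RB1 and CDKN1C were lower in S136X (edgeR adjusted p = 0.0257 and 0.0478). All mutant libraries of RB1 (up to 14.5 CPM) were below its vector libraries (at least 15.7 CPM). In S136X RB1 also passed in edgeR with upper-quartile factors (adjusted p = 0.0423) and total counts (0.0383). CDKN1A in S136X lay above vector in every library. It passed there with DESeq2 (adjusted p = 0.0342) and with no filter in edgeR (0.00933). Neither gene passed in S136X in any of the 6 fits that left out a library.

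CDK4 was the G1 kinase that rose. It had 238, 204 and 214 CPM in vector, 277, 269 and 262 in S136X and 312, 293 and 256 in R58Q, and rose by 0.30 and 0.39 on the log2 scale (edgeR adjusted p = 0.0293 and 0.0182). Of the 6 fits for each mutant that left out 1 library, its adjusted p stayed under 0.05 in S136X only without vector replicate 1, and in R58Q in all but those without vector replicate 2 (0.0820) or vector replicate 3 (0.0633). Exons of CDK4 overlap TSPAN31 on the opposite strand over 43.2% of their length, so its counts are uncertain in the same way as those of TYMS. CDK6 had 52.1, 34.6 and 20.6 CPM in vector, 114, 36.9 and 36.1 in S136X and 148, 40.1 and 62.0 in R58Q, highest in replicate 1 of each construct. Its log2 fold changes of 0.80 and 1.22 did not pass (adjusted p = 0.312 and 0.104) and did with the block (adjusted p = 0.00926 and 0.00423). Single replicate 1 libraries moved these values, since CDK6 had 0.03 without S136X replicate 1 and 0.52 without R58Q replicate 1, against 1.18 and 1.60 without vector replicate 1. Of the cyclins D, CCND3 had 0.07 and 0.30 (0.0326 as the edgeR adjusted p with the block in R58Q), CCND1 0.46 and 0.45 at under 1 CPM in every library, and CCND2 had too few counts to be tested.

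**Figure D5:**
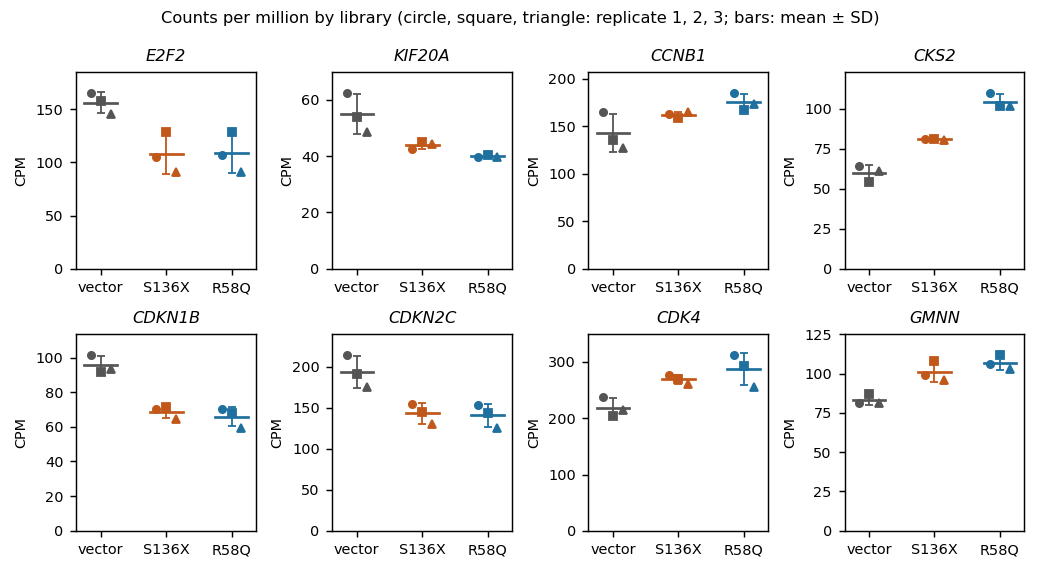
CPM by library of 3 members and 5 related genes, each axis starting at 0, with circles, squares and triangles for replicates 1, 2 and 3 and bars for the mean and SD of 3 libraries. CKS2 rises from 59.8 CPM in vector to 81.1 in S136X and 105 in R58Q, while E2F2, CDKN1B and CDKN2C are lower in both mutants.

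Further genes of both phases were counted against the 10.1% and 21.0% of all genes that passed. Of 30 other S phase genes, 1 rose and none fell in S136X, and 3 rose and 2 fell in R58Q. GMNN, the inhibitor of CDT1, rose in both, with 81.2, 86.7 and 81.3 CPM in vector, 99.1, 108 and 95.9 in S136X and 106, 112 and 103 in R58Q (log2 fold changes 0.28 and 0.36, edgeR adjusted p = 0.0292 and 0.00506). FEN1, a flap nuclease, and TIPIN, a replication fork protein, rose in R58Q by 0.20 and 0.25, and EXO1 and E2F8 fell by 0.18 and 0.21. With the block 4 passed in S136X and 10 in R58Q, where 24.7% and 35.2% of all genes did. The median log2 fold change of the 30 genes was -0.08 and -0.07.

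Of 40 other G2/M genes 38 could be tested, of which 1 rose and 1 fell in S136X and 2 rose and 3 fell in R58Q. CKS2, a small subunit that binds cyclin-dependent kinases (chr9:89311195-89316703), had 64.0, 54.2 and 61.3 CPM in vector, 81.3, 81.5 and 80.7 in S136X and 110, 102 and 102 in R58Q. The 3 groups did not overlap, in the order vector, S136X, R58Q. CKS2 rose by 0.44 in S136X (SE 0.0718, edgeR adjusted p = 0.00792) and by 0.80 in R58Q (SE 0.0750, adjusted p = 0.000406). PSRC1, a spindle protein, had 11.5, 11.1 and 10.2 CPM in vector, 7.18, 7.87 and 5.86 in S136X and 7.01, 8.25 and 7.13 in R58Q, and fell by 0.64 and 0.55 (adjusted p = 0.0210 and 0.0138). PSRC1 did not pass in S136X without vector replicate 1, vector replicate 2 or S136X replicate 3 (adjusted p up to 0.0933), nor in R58Q without vector replicate 2 or R58Q replicate 3 (adjusted p up to 0.0634). HJURP and CTCF fell and JPT1 rose in R58Q, by 0.31, 0.24 and 0.38 on the log2 scale. With the block, 2 of the 38 were higher and 12 lower in S136X, and 5 were higher and 12 lower in R58Q, where 24.7% and 35.2% of all genes passed in either direction.

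Of 12 other E2F and DREAM or MuvB genes, E2F5 and E2F7 fell in S136X, by 0.33 and 0.32 on the log2 scale (edgeR adjusted p = 0.0284 and 0.0485). In R58Q E2F4 and TFDP1, the E2F partner DP1, rose by 0.22 each (adjusted p = 0.0365 and 0.0357). These are 2 of 12 in each mutant, where 10.1% and 21.0% of all genes passed. With the block 2 were higher (E2F4 and E2F6) and 3 lower (E2F5, E2F7 and TFDP2) in S136X, and 2 higher (E2F4 and TFDP1) and 4 lower (E2F5, E2F7, TFDP2 and LIN54) in R58Q. None of the 12 passed between the mutants (edgeR), where none had an unadjusted p under 0.05.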

How the data were processed

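RNA of 9 RIVA libraries (3 constructs, 3 replicates each, taken from the sample titles) was sequenced as single-end poly(A)-selected libraries, and the sequencing runs were combined. Per the labels, the authors' processing notes name STAR, cutadapt, Picard and hg38. The counting program and annotation are not given in the sources used here. The authors deposited whole-number counts per gene, which were analysed as deposited. A further 9 normalized columns were not used. The study calls the replicates biologic, but how they were separated is not stated in the sources used here, so p-values measure the spread between these libraries.

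Each pair of constructs was fitted separately in edgeR 4.0.16 (R 4.3.3): genes with enough counts (filterByExpr, minimum 10, total 15), TMM factors, quasi-likelihood test, Benjamini-Hochberg adjustment over all genes tested. Passing means an adjusted p under 0.05, and "with 1.5-fold" adds that threshold. Levels are CPM on TMM-scaled library sizes. Replicates of a construct were not repeats of 1 library: a chi-square test of their counts gave 7.91 to 25.6 per degree of freedom. Deviations from the construct's mean correlated at 0.143 to 0.626 for libraries with the same number (9 pairs, median 0.425). Other pairs had -0.459 to 0.169 (18 pairs, median -0.25). Centring on the construct's mean pulls other pairs below 0 when same-number pairs are above it, so the -0.25 is no separate evidence. All 9 same-number pairs were above 0, so the fit with the number as a block is given beside the main fit where it changes a result.

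The members and lists were chosen with earlier results of these data known. Named members are those passing both thresholds, the highest and lowest of each list against vector, and MKI67, PCNA, CCNB1, CCNE1, MCM2 and CDK1. Related genes are the G1 cyclins, kinases and inhibitors and any past both thresholds, while MYBL2 and other genes that passed were named after their values were seen. Exon lengths and overlaps came from GENCODE v29. Alternatives were DESeq2 1.42.0, limma-voom (limma 3.58.1), other scalings and filters, all 9 libraries in 1 fit, the block, no fold threshold and single libraries left out. Leaving out all replicate 1 libraries and testing the replicate number were added after the data were seen. The code was tested on simulated data.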

Additional observations from a re-analysis of the deposited data

Results flagged for a closer look

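CKS2 differed between the mutants. Its rise over vector was larger in R58Q than in S136X, by a log2 fold change of 0.36 in the direct comparison of the 6 libraries (SE 0.0545, edgeR adjusted p = 0.0411), and every R58Q library was above every S136X library. The adjusted p was 1.6e-05 with the replicate block and 0.0591 with upper-quartile factors, and over the 6 fits that left out a library it ran from 0.0856 to 0.202, so the call rests on having all 6. The other genes of the cell cycle lists did not pass this test. The column dates separate R58Q from S136X, so date and construct cannot be told apart here.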

How the results depend on the processing

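Members that passed, 1 of 40 in S136X and 2 of 40 in R58Q, became 2 in S136X under DESeq2, upper-quartile factors, total counts, no filter or all 9 libraries in 1 fit, and 4 in R58Q under DESeq2 or no filter. With the replicate block they were 7, 12 and 7 of 40 in S136X, R58Q and the direct comparison. Leaving out libraries (each in turn, or replicate 1 of every construct) gave 0 to 2 in S136X and 1 to 4 in R58Q. Members past both thresholds, 0 at first, were 1 and 2 without the fold threshold and 1 in R58Q with upper-quartile factors, and 0 to 1 in both with libraries left out. Genes past both thresholds in S136X, 601 in all, were 934 with no filter, 1014 with the block, 1574 without the fold threshold and 279 to 722 with libraries left out. In R58Q, 1178 became 3243 without the fold threshold and 719 to 1248 with libraries left out. Between the mutants, 66 became 146 with DESeq2, 165 with no filter, 114 with all 9 libraries, 446 with the block, 5 to 63 with libraries left out and 30 without replicate 1. The mitotic median ran from -0.164 to 0.0488 in S136X and from -0.195 to 0.00766 in R58Q with libraries left out, and above 0 only without vector replicate 1. The cause was not tested.

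The replicate number as a term passed in 16 mitotic members with no filter, 3 without the S136X libraries and 6 without the R58Q libraries. For S phase members it was 14 without the vector libraries, 0 without the S136X libraries (edgeR) and 2 without the R58Q libraries. The share of all genes passing in these fits was not computed.

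Single genes changed sign near 0, with no test passed. In S136X, MCM2 had -0.0346 with upper-quartile factors, -0.0505 with total counts and -0.00128 with at least 10 counts in every library, and CCNE2 had -0.0236 and -0.0413 with the first of these settings and with total counts. CDKN2A in R58Q had -0.0186 with upper-quartile factors and -0.0131 with total counts. With libraries left out, S136X values ran from -0.0545 to 0.0766 for MCM2, -0.0578 to 0.110 for CCNE2, -0.158 to 0.0519 for CDK1, -0.0973 to 0.00802 for PCNA, -0.0751 to 0.106 for CDKN2A and -0.0437 to 0.256 for CCND3. R58Q values ran from -0.101 to 0.0533 for MCM2, -0.0218 to 0.146 for CDKN2A and -0.158 to 0.0370 for CDKN1A.

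Scaling moved the split of calls. In S136X 319 genes were higher and 282 lower (53.1% higher), against 257 and 368 (41.1%) with total counts. In R58Q 632 were higher and 546 lower (53.7%), against 542 and 772 (41.2%) with upper-quartile factors and 549 and 741 (42.6%) with total counts. The members' intervals lay inside 1.5-fold for 39, 38 and 40 of 40, with 3 libraries a group in 1 line.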
